A study of Drosophila melanogaster with 3 samples.

Results

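Aminoacyl-tRNA synthetase genes were taken as the protein-coding genes whose symbol joins a 3-letter amino acid code to RS, with or without the suffix -m, plus GluProRS. The rule found 33 genes among the 13945 protein-coding genes of the main chromosome arms. The 15 with the suffix -m are called mitochondrial here and the other 18 cytoplasmic, by symbol alone. Where each enzyme works was not examined. The rule misses alpha-PheRS and beta-PheRS, the subunit genes of the cytoplasmic phenylalanyl enzyme, which are thus not among the 18. It did not use any measured value, but the members were chosen with earlier results of these data known. Binding of Stwl (stonewall), a nuclear protein with a MADF domain known for the upkeep of germline stem cells in the fly ovary, had been mapped by ChIP-seq in whole embryos of Drosophila melanogaster aged 0 to 10 hours. The embryos came from a transgenic line that stably expresses Stwl with GFP at its C-terminus, chromatin was sonicated to 200 to 800 bp, and the protein was precipitated through GFP in 3 biological replicates of this 1 group. All cells of the embryo were mixed, no other genotype or stage was analysed here, and peak lists cannot show in which cells a site was occupied. Signal values were assigned to peaks by the authors, on a different scale in each list.

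Aminoacyl-tRNA synthetases join each amino acid to its tRNA and so supply the ribosome with charged tRNA. They fall into class I and class II, which carry unrelated catalytic folds. In animals the cytoplasm and the mitochondrion use largely separate enzymes, all encoded in the nucleus, and a number of the cytoplasmic ones sit together in the multisynthetase complex. The synthetases are housekeeping genes that every cell needs for growth, and in mammals part of them respond to amino acid shortage through the transcription factor ATF4, which is named crc in the fly.

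A synthetase gene was called bound if the summit of a peak lay within 500 bp of a transcription start site (TSS) of the gene. The main list holds the 7241 peaks that passed the irreproducible discovery rate (IDR), a measure of how well peaks repeat between replicates. In that list 27 of 33 synthetase genes were bound, or 81.8% (95% Wilson interval 65.6 to 91.4, counting error only), against 42.1% of all protein-coding genes. Among the cytoplasmic genes 17 of 18 were bound, or 94.4% (74.2 to 99.0), and AspRS was the exception. Among the mitochondrial genes 10 of 15 were bound, or 66.7% (41.7 to 84.8), and GluRS-m, IleRS-m, SerRS-m, TyrRS-m and ValRS-m were not. The 2 intervals overlap, and no test was made across genes, since genes are not replicates. Other groups of translation genes gave similar shares, with 76 of 93 cytoplasmic ribosomal protein genes (81.7%) and 62 of 73 mitochondrial ribosomal protein genes (84.9%) bound.

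Windows of up to 75 bp to either side of the strongest promoter summit are printed for 4 cytoplasmic and 5 mitochondrial bound genes. These are the strongest of each kind outside the chromosome arm of ValRS, without SerRS. ValRS, AsnRS-m and CysRS-m lie on that arm and are not printed, although each had a higher signal than some printed gene of its kind. Each window was read from the RefSeq Release 6 genome (dm6) on the strand of the synthetase gene, 5′ to 3′. It was shortened where it would have held more than 30 exonic bases, which left too short a window at SerRS. Capitals mark matches, on either strand, to any of the 8 motifs that were searched: the DRE, TATCGATA, the BEAF-32 core, CGATA, which also lies within the DRE, the core of Motif 1 bound by M1BP, GGTCACAC, Ohler Motif 7, CATCNCTA, the E-box CACGTG, the sequence of the GAGA factor, which is GAGAG, the amino acid response element TGATGNAAT, and the CRE, TGACGTCA. The first 4 lines belong to cytoplasmic genes and the other 5 to mitochondrial genes.
TrpRS (chr3R:9266906-9267048, minus strand): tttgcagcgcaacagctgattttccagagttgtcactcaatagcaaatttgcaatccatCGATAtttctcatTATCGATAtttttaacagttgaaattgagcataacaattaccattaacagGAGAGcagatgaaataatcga
GlnRS (chr3R:25265695-25265845, minus strand): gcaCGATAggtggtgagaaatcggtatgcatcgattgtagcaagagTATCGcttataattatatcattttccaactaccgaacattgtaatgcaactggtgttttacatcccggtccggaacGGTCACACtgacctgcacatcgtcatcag
LeuRS (chr2L:3514700-3514850, minus strand): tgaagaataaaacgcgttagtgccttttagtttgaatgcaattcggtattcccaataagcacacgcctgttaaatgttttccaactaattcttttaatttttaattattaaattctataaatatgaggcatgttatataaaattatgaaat
ThrRS (chr2L:12103576-12103726, plus strand): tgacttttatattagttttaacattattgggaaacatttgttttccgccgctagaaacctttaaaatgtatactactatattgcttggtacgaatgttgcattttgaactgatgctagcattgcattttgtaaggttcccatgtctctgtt
LeuRS-m (chr3L:4825697-4825847, plus strand): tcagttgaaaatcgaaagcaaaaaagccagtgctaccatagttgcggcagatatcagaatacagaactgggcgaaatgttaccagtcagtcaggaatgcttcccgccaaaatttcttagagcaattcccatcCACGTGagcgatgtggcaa
ProRS-m (chr3L:2651885-2652035, minus strand): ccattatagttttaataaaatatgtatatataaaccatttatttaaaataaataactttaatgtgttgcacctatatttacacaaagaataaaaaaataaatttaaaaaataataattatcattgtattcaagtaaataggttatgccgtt
ArgRS-m (chr3R:7886973-7887074, plus strand): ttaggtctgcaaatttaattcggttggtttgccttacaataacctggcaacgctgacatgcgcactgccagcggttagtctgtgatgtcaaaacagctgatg
AspRS-m (chr2L:16827001-16827107, plus strand): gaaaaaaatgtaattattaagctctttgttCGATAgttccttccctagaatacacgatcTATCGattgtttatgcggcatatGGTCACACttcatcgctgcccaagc
MetRS-m (chr3R:14259962-14260100, minus strand): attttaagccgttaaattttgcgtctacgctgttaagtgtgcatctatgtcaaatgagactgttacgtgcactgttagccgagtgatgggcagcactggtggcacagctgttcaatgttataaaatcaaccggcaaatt

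The printed windows differ from each other in composition and in what they hold. TrpRS carries a complete DRE 8.5 bp from its summit, GlnRS and AspRS-m carry the Motif 1 core, and LeuRS-m carries an E-box. LeuRS, ThrRS, ProRS-m and MetRS-m carry none of the 8 motifs, also within 100 bp of the summit. In windows of that size G and C made up 19.9% of the bases at ProRS-m and 47.3% at LeuRS-m, with a median of 35.3% over the 27 bound genes and 37.3% over 4810 promoter IDR summits.

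The share of bound genes was then followed through the replicate lists, each cut to its 7241 strongest peaks. Replicate 1 had a promoter summit at 25 synthetase genes against 40.9% of all protein-coding genes, replicate 2 at 27 against 41.3%, and replicate 3 at 27 against 42.2%. Cytoplasmic genes were bound in 88.9%, 100% and 94.4% of cases in replicates 1, 2 and 3, and mitochondrial genes in 60%, 60% and 66.7%. The cytoplasmic share was higher in all 3 replicates, by 28.9, 40.0 and 27.8 percentage points, with a mean of 32.2 ± 6.76 (SD, n = 3). The lowest cytoplasmic share thus lay above the highest mitochondrial share. The 3 values measure how well the libraries repeat and share the same genes.

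In all 3 replicates at once, 25 of 33 synthetase genes had a summit in the strongest 7241, against 35.3% of all protein-coding genes, 16 of them cytoplasmic and 9 mitochondrial. The 5 genes with none in any of the 3 were the 5 unbound mitochondrial genes. With all 30000 peaks of each replicate list the counts were 28, 30 and 31 of 33, against 57.2%, 55.6% and 57.2% of all genes, and the difference between the 2 kinds shrank to 18.1 ± 4.21 points (SD, n = 3). In these longer lists 27 synthetase genes had a summit in all 3 replicates, against 47.1% of all genes, and IleRS-m and ValRS-m had none in any.

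The difference between the kinds depended on where the list was ended. In the pooled list of 30000 peaks 31 of 33 genes were bound against 56.1% of all genes, with all 18 cytoplasmic and 13 of 15 mitochondrial genes among them. Among the 3620 strongest peaks of the IDR list 18 synthetase genes were bound against 27.7% of all genes, namely 10 of 18 cytoplasmic (55.6%) and 8 of 15 mitochondrial (53.3%). At that level the 2 kinds differed by 2.22 points, which is less than a single gene of either kind.

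**Figure D1:**
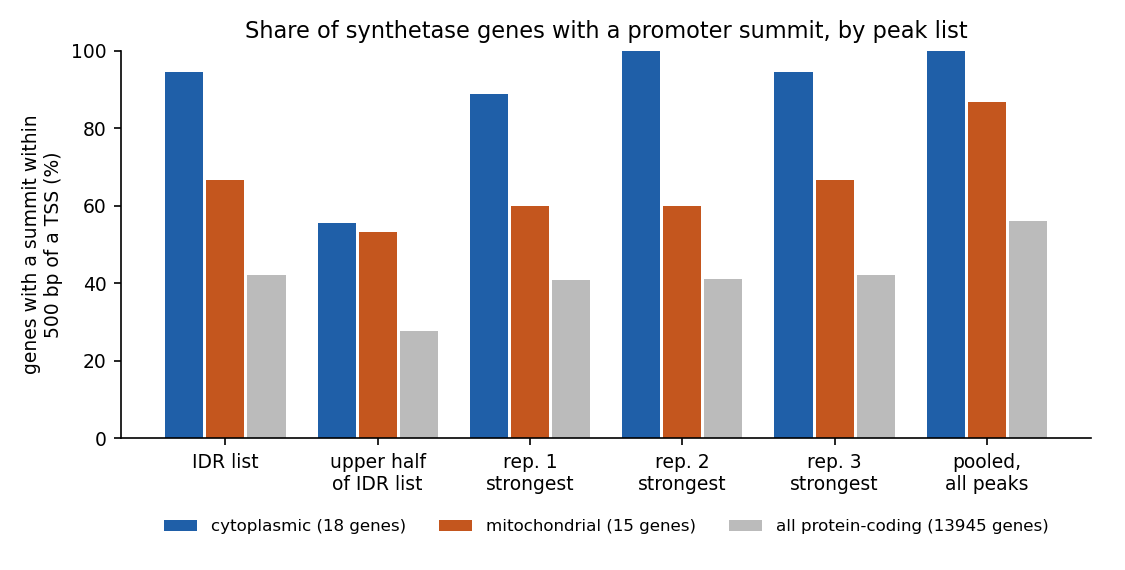
Share of cytoplasmic genes (blue), mitochondrial genes (orange) and all protein-coding genes (grey) with a summit within 500 bp of a TSS, in percent, in 6 peak lists, where the replicate lists are cut to their 7241 strongest peaks. The blue bars are far above the orange ones in the IDR list and in each replicate, and nearly level with them at 55.6% and 53.3% among the 3620 strongest IDR peaks.

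Among bound genes the signal did not single out either kind. The strongest promoter summit of a bound synthetase gene had a median signal value of 507, with a range from 236 to 1329, against a median of 523 over all 5870 bound protein-coding genes. The median was 457 over the 17 cytoplasmic and 524 over the 10 mitochondrial genes, and the ranges of the 2 kinds overlapped over nearly their whole length. The −log10 of the q-value was 4.14 at every bound synthetase gene, which is the highest value in the list, so that column does not order them. The 5 strongest sites, with signal values over 1000, belonged to 3 cytoplasmic and 2 mitochondrial genes and stood apart from the others, the next of which was at 662.

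The highest signal of the family was at LeuRS-m (FBgn0027085), the mitochondrial leucyl enzyme, with 1329 in the IDR list at position 4825772 on 3L, 81 bp upstream of its TSS. The replicate lists gave this site signal values of 209, 242 and 872 and ranks of 261, 299 and 306, so all 3 libraries placed it alike. Its position lies between LeuRS-m and Dhc64C, the gene of the cytoplasmic dynein heavy chain, whose TSS is 166 bp away on the other strand. The other mitochondrial gene of this size was ProRS-m (FBgn0027082), at 2651960 on 3L, 110 bp upstream, with a signal value of 1051 and ranks of 558, 174 and 848. It shares its upstream region with Snup, which encodes snurportin.

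ValRS (FBgn0027079), the cytoplasmic valyl enzyme, had a signal value of 1288, ranks of 708, 157 and 331 in replicates 1, 2 and 3, and its summit at 13198379 on 2R. This summit lay 471 bp upstream of ValRS and only 42 bp from the TSS of the histone demethylase gene Kdm4B, so it was the bound site farthest from its synthetase gene and the one nearest to the limit of 500 bp. No further gene of the family became bound when the limit was moved to 1000 bp.

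TrpRS (FBgn0010803), for tryptophan, and GlnRS (FBgn0027090), for glutamine, completed the 5 strongest. TrpRS reached 1287 in signal, with its summit at 9266981 on 3R, 77 bp upstream, and ranks of 377, 363 and 290. Its summit was nearer to Vps16A, a gene of vacuolar protein sorting, at 38 bp. GlnRS reached 1240.1 in signal at 25265770 on 3R, 49 bp upstream, with ranks of 541, 679 and 264. RIOK2, a kinase gene of small ribosomal subunit maturation, starts 123 bp from GlnRS on the other strand. All 5 sites were among the strongest 1000 of every replicate.

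The next sites were also found in every replicate. ArgRS-m had a signal value of 662 with its summit 3 bp inside the gene and ranks of 1266, 1818 and 1820 in replicates 1, 2 and 3. SerRS had 620.15 with its summit 45 bp inside the gene and ranks of 1479, 2411 and 2027. For AsnRS-m, at 612, replicate 2 stood apart with a rank of 4512 against 1217 and 1813 in replicates 1 and 3. AspRS-m had a signal value of 541 with its summit 2 bp before the TSS, and ranks of 2377, 2739 and 2819, a narrow range.

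The remaining mitochondrial genes had lower signals. CysRS-m had a signal value of 507 and ranks of 4541, 2551 and 2655, MetRS-m had 471 and ranks of 4933, 5221 and 2545, and TrpRS-m had 451 and ranks of 2119, 3651 and 3967. PheRS-m, at 334, was the least repeatable bound site of the family: replicate 3 ranked it 3731, replicate 1 ranked it 14445, and replicate 2 had no summit within 150 bp. AlaRS-m was the weakest bound mitochondrial gene at 299.

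The other cytoplasmic genes ran without a gap from LeuRS at 605, ThrRS at 584, AsnRS at 575, IleRS at 544 and GlyRS at 457 to GluProRS at 448, LysRS at 397, AlaRS at 378 and HisRS at 356. The lowest were ArgRS at 301, MetRS at 289, CysRS at 270.3 and TyrRS at 236, where the lowest signal value in the IDR list was 194. GluProRS encodes a single protein with both the glutamyl and the prolyl activity. CysRS missed the strongest 7241 of replicate 1 with a rank of 7455, and it was the only bound cytoplasmic gene to do so in any replicate.

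Over all 27 bound sites, the 3 replicates gave matches within 150 bp at 27, 26 and 27 sites. Median ranks were 2752, 2623.5 and 2819, and the median shift of the summit was 26, 21.5 and 15 bp. At 25 of the 27 sites, or 92.6%, the match was among the strongest 7241 of all 3 replicates, against 78.7% of the 4198 sites of all bound genes. Across the 26 sites matched in every replicate, signal values of replicates 1 and 3 had a Spearman's rho of 0.850, above the 0.746 of replicates 1 and 2 and the 0.729 of replicates 2 and 3. Each coefficient describes how alike 2 libraries ordered the same sites. Sites are not replicates, so no p is given.

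**Figure D2:**
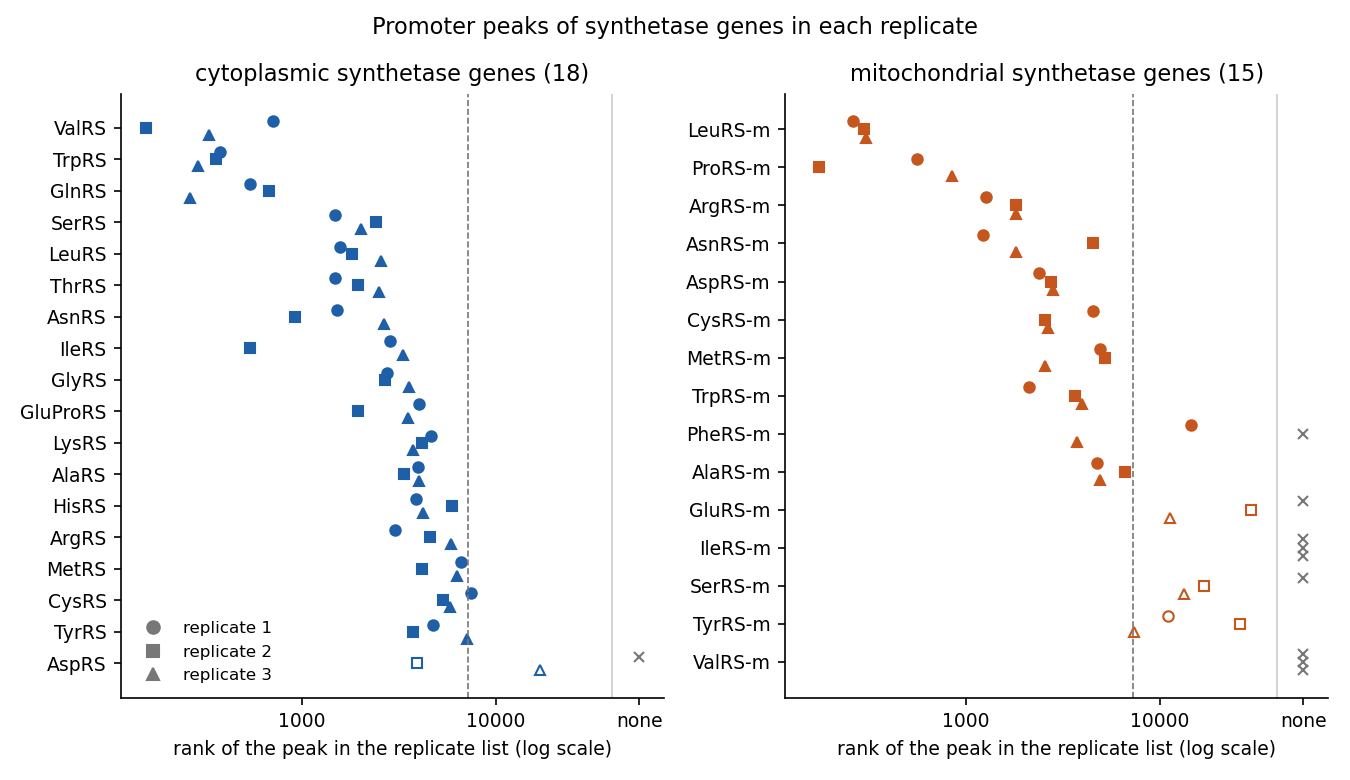
Rank of the promoter peak of each synthetase gene in replicate 1 (circle), 2 (square) and 3 (triangle) on a log scale, where filled symbols are bound genes, open symbols are genes with no promoter IDR summit, a cross marks no summit and the dashed line is rank 7241. For bound genes the peak is the one within 150 bp of the IDR summit, and for the others the strongest within 500 bp of a TSS. The filled symbols stay left of the line except CysRS and PheRS-m in replicate 1, and of the open ones only AspRS in replicate 2 is left of it.

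The 6 genes with no promoter IDR summit were not alike. IleRS-m and ValRS-m, the mitochondrial isoleucyl and valyl enzymes, had no summit within 500 bp in any list, and their nearest IDR summits were 5440 and 2015 bp away. TyrRS-m came closest to the list, with a pooled signal value of 158 at rank 8496 and ranks of 10952, 25767 and 7355 in the replicates. SerRS-m ranked 13644 in the pooled list, had ranks of 16984 and 13368 in replicates 2 and 3, and was missing from replicate 1. GluRS-m ranked 19742 in the pooled list, had ranks of 29630 and 11323 in replicates 2 and 3, and was also missing from replicate 1. The TSS of GluRS-m lies 171 bp past the end of TyrRS on the same strand, and its nearest IDR summit, 2244 bp upstream, is the one at the TyrRS promoter.

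AspRS, the only unbound cytoplasmic gene, split the replicates. Replicate 2 held a summit at -239 bp from the nearest of its 3 TSSs (negative values are upstream) at rank 3951, replicate 3 held another at 270 bp at rank 16880, and replicate 1 held none. In the pooled list its rank was 22557, and the nearest IDR summit was 4413 bp away.

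Summits sat just upstream of the synthetase genes. Of the 27 strongest summits 24 were upstream of the nearest TSS of the gene, or 88.9% (71.9 to 96.1), close to the 90.2% over all bound genes. The median position was 78 bp upstream, with 100 bp for cytoplasmic and 40.5 bp for mitochondrial genes, against 72 bp for all bound genes. All but ValRS, 26 of 27 or 96.3%, lay within 200 bp of the TSS, against 82.0% of all bound genes. In the annotation 24 summits fell outside the gene and 3, at SerRS, AlaRS and ArgRS-m, in an exon of the 5′ UTR, and none fell in an intron or a coding exon. AsnRS, GlyRS and AspRS-m, 3 of 27, each had a second, weaker summit within 500 bp. Among all 5870 bound genes 812 had more than 1 summit.

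**Figure D3:**
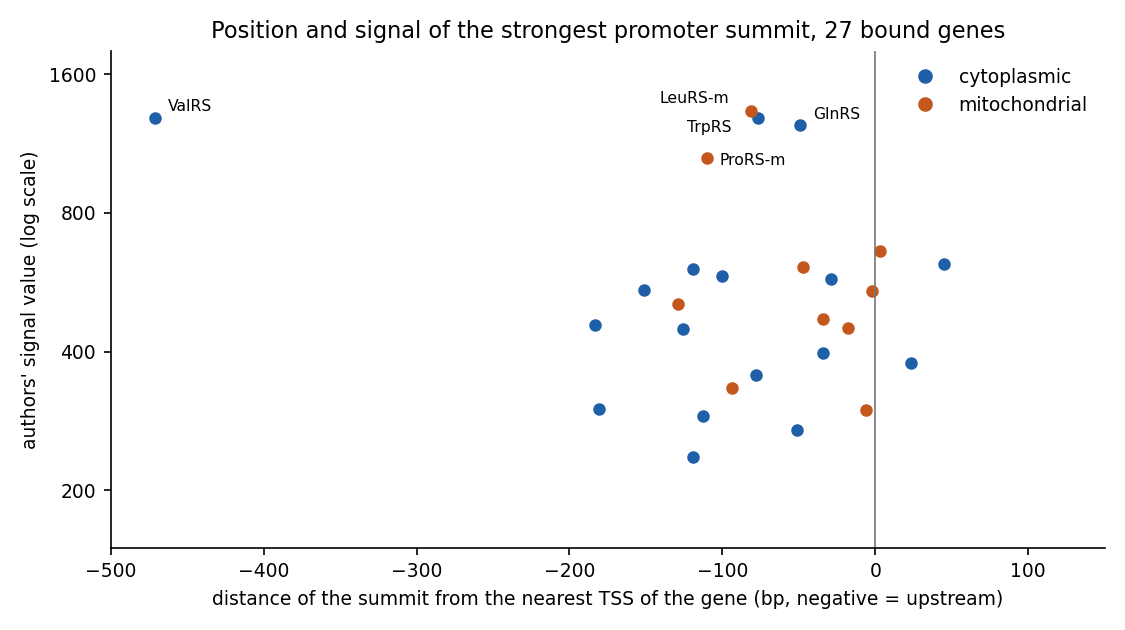
Signal value (log scale) of the strongest promoter summit of the 27 bound genes against its distance from the nearest TSS of the gene in bp, where negative values are upstream and colour gives the kind. The 5 named sites over 1000 stand above a cloud between 236 and 662, and ValRS lies alone at 471 bp upstream.

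Many synthetase genes share their upstream region with another gene. A protein-coding TSS on the other strand, up to 1000 bp upstream, was found for 23 of 33 genes, or 69.7%, against 36.2% of all protein-coding genes. This is not particular to the family, since 60.2% of cytoplasmic and 79.5% of mitochondrial ribosomal protein genes had one. At the synthetase genes the distance between the 2 starts ran from 8 to 561 bp with a median of 238. Such a divergent partner was present at 16 of 18 cytoplasmic genes and at 7 of 15 mitochondrial genes. Of the 23 genes with a partner 21 were bound, against 70.9% of all genes of that arrangement, and of the 10 without one 6 were bound, against 25.7% of all genes without one. Ribosomal protein genes with a partner were bound in 85.7% (cytoplasmic) and 86.2% (mitochondrial) of cases. Those without one were bound in 75.7% and 80.0%.

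Within each arrangement the genes of either kind are few. With a partner, 15 of 16 cytoplasmic and 6 of 7 mitochondrial genes were bound. Without a partner, both cytoplasmic genes, AlaRS and CysRS, were bound, and 4 of 8 mitochondrial genes, namely AspRS-m, MetRS-m, TrpRS-m and PheRS-m. These 8 mitochondrial genes also have no TSS of another protein-coding gene within 1000 bp on either strand. In that state 25.7% of all protein-coding genes were bound, and no cytoplasmic synthetase gene is so placed. The part of the arrangement in the difference between the kinds was not tested.

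A summit between 2 divergent genes counts for both of them. At 19 of the 21 bound genes with a partner the summit lay between the 2 starts. Of the 27 bound genes 21 had a TSS of another gene within 500 bp of the summit, and the synthetase TSS was the nearest at 20 of 27, with HisRS and Bx at the same distance of 78 bp. The other 7 summits were nearer to Kdm4B at ValRS, Vps16A at TrpRS, CG17593 at LeuRS, Hecw at LysRS, CG8578 at ArgRS, ste24a at AsnRS-m and O-fut1 at CysRS-m. Of all 5870 bound protein-coding genes 4455 had a summit nearest to their own TSS, so 20 of 27 is not particular to this family. The shares of all bound genes with a summit between 2 starts, or with another TSS near it, are not given here. When a gene was called bound only if its own TSS was the nearest, 12 cytoplasmic and 8 mitochondrial genes were left, against 31.9% of all protein-coding genes, and 13.3 points separated the kinds. Which of the 2 genes a site acts on was not tested.

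**Figure D4:**
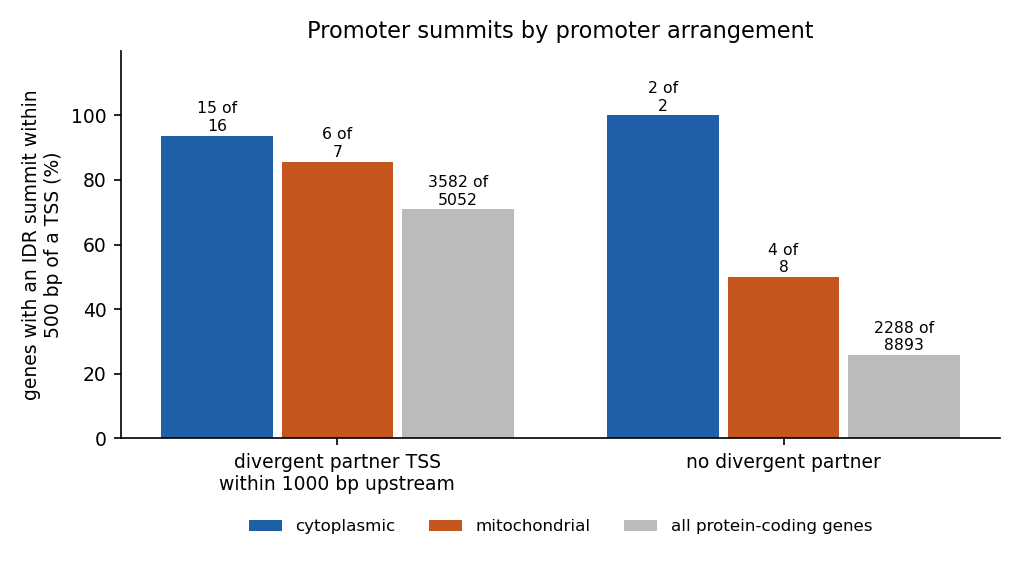
Percent of bound genes in the IDR list among genes with and without a divergent partner, for cytoplasmic genes (blue), mitochondrial genes (orange) and all protein-coding genes (grey), with the counts above the bars. With a partner 15 of 16 and 6 of 7 genes were bound, and without one 2 of 2 and 4 of 8.

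For 14 amino acids the family holds both a cytoplasmic and a mitochondrial gene, with GluProRS counted for glutamate and for proline. Both genes were bound for 8 of them, only the cytoplasmic gene for 5 (glutamate, isoleucine, serine, tyrosine and valine), and only the mitochondrial gene for aspartate. Where both were bound, the mitochondrial gene had the higher signal for arginine, asparagine, cysteine, leucine, methionine and proline, and the cytoplasmic gene for alanine and tryptophan. For 6 of these 8 amino acids the same gene was higher in all 3 replicates, and asparagine and methionine were the exceptions, with the cytoplasmic gene higher in replicate 2. The widest gap was at tryptophan, with 1287 at TrpRS and 451 at TrpRS-m, while valine went from 1288 at ValRS to no summit at ValRS-m. At asparagine the genes were close, with 575 at AsnRS and 612 at AsnRS-m.

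**Figure D5:**
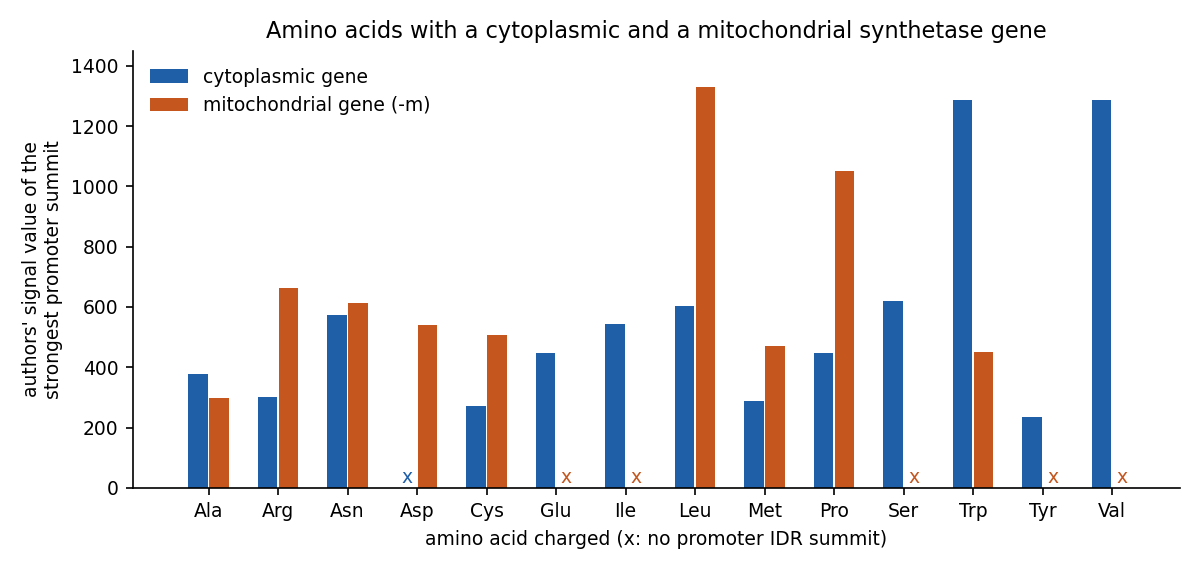
Signal value of the strongest promoter summit of the cytoplasmic (blue) and the mitochondrial gene (orange) for 14 amino acids, with x where the gene had no promoter IDR summit. The orange bar is the taller for 6 of the 8 amino acids with both genes bound, and 5 amino acids lack the orange bar.

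The 5 amino acids with a cytoplasmic member only, threonine, glycine, glutamine, lysine and histidine, had all 5 genes bound. In human, the glycyl and the lysyl enzymes of both compartments are each made from a single gene. By enzyme class, against 42.1% of all protein-coding genes, 14 of 18 class I genes and 12 of 14 class II genes were bound, besides GluProRS, which joins both classes. The class I genes of the cytoplasm were bound in 9 of 9 cases and those of the mitochondrion in 5 of 9, while class II gave 7 of 8 and 5 of 6. Of the 8 genes for synthetases of the multisynthetase complex 7 were bound, all but AspRS, with a median signal value of 448, and the 10 other cytoplasmic genes were all bound with a median of 516. These sub-lists hold few genes each and were not compared by a test.

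Around the 27 strongest summits, within 100 bp, 14 windows held at least 1 of the 8 motifs, or 51.9%, against 72.2% of the 4810 promoter IDR summits. The DRE was found at TrpRS and AlaRS, 7.41% of bound genes against 16.3% of all promoter summits. Its shorter part, CGATA, known as the core bound by the insulator protein BEAF-32, was found at 11 genes, or 40.7% against 54.5%. The Motif 1 core was found at 4, ValRS, GlnRS, AsnRS-m and AspRS-m, or 14.8% against 14.0%. Within 200 bp of the summit the DRE was at 5 of 27 bound genes and CGATA at 18 of 27, close to the shares of promoter summits. The counts of bound genes are small, and each of these shares is a description.

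Of the other motifs, GAGAG was found at 3 genes, TrpRS, AsnRS and ArgRS, against 17.2% of all promoter summits, the E-box at GlnRS and LeuRS-m against 3.06%, and Motif 7 at AlaRS against 8.11%. The amino acid response element, the kind of sequence that ATF4 binds in mammals, was found at AsnRS alone, against 0.748% of promoter summits. Within 50 bp of the summit it was at 0 of 27 bound genes, against 0.333%, and within 200 bp at 2, against 1.41%. The E-box was also at 0 of 27 within 50 bp, against 1.37%. The CRE was found at none, against 0.353%. A match is a stretch of letters and not a shown site, and a window without one only lacks those letters. Windows from 150 bp before to 50 bp after the TSS were searched for all 33 genes. The DRE was found at 5 of them, 4 cytoplasmic and 1 mitochondrial, against 8.22% of all protein-coding genes. None of the 6 unbound genes had it, but 6 genes are too few to set against a share of 8.22%. CGATA was found at 3 of the 6 unbound genes, against 39.4% of all protein-coding genes. The amino acid response element was in 0 of the 33 promoter windows, against 0.731% of all protein-coding genes.

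Related genes outside the symbol rule were taken from a list of 24, of which 21 were matched in the annotation, 1 of them by a synonym. The list holds alpha-PheRS and beta-PheRS, which encode a synthetase themselves, and genes that work with the synthetases. In the IDR list 16 of the 21 were bound, or 76.2%, against 42.1% of all protein-coding genes, with a median signal value of 441 against 523 over all bound genes. The highest was beta-PheRS, the beta subunit of cytoplasmic phenylalanyl-tRNA synthetase, with 1536 and ranks of 201, 499 and 146, above every gene of the symbol rule. Next were eEF1gamma, a subunit of the factor complex that recharges the carrier of aminoacyl-tRNA, at 984, and mEFG1, a mitochondrial translocation factor, at 822. AIMP3, a scaffold protein of the multisynthetase complex, was at 667, and mEFTs, the exchange factor of mitochondrial EF-Tu, at 588.

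The unbound genes of that list were AIMP1, GatA, eEF1delta, mEFTu2 and Dtd. AIMP1 is a further scaffold protein of the complex, and GatA is a subunit of the amidotransferase that makes mitochondrial glutaminyl-tRNA. A few more were picked after their values were seen, for their roles. alpha-PheRS, the partner subunit of beta-PheRS, was bound with a signal value of only 275. Gcn2, the kinase that senses uncharged tRNA, was bound with 386, and crc, the fly ATF4 gene downstream of it, with 301.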

How the data were processed

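Per the labels, 3 biological replicates of 1 group were made on build dm6, so replicates were compared with each other and no condition was tested. Per the text files deposited with the lists, each replicate list came from that library and a control library, the pooled list from all libraries, and the IDR list from these. Which aligner, peak caller, versions and threshold were used was not given in the sources used here. Each deposited list gives, per peak, the authors' signal value, a q-value as −log10 and the offset of the summit within the peak. Replicate and pooled lists hold 30000 peaks each, the IDR list 7241. Read depth is unknown, and Wilson intervals cover counting error only.

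Genes and TSSs came from Ensembl BDGP6.54 (release 115), and coordinates are counted from 1. Summits were scored within 500 bp of any TSS with Python 3.11.15 and NumPy 2.4.6, and replicate summits were matched to IDR summits within 150 bp. The scoring was tested on simulated summits planted near annotated TSSs. The motif search was tested on motifs planted in simulated sequence, without GAGAG and the amino acid response element. No p-value was computed, since genes are not replicates.

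The members, lists and motifs were chosen with earlier results of these data known. Every member is named. Values in each replicate are given for the 8 strongest bound genes, the 8 strongest bound mitochondrial genes and all unbound genes, sequences for the 5 strongest of each kind outside 2R, except SerRS, where the limit of 30 exonic bases left too short a window, and related genes for the 5 highest signals. Alternatives changed the list, the distance to the TSS, the TSS used, the replicates and the motif window.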

Additional observations from a re-analysis of the deposited data

How the results depend on the processing

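Read depth is unknown, and the shares rest on 18 and 15 genes, so 1 gene moves them by several points. The count of 17 bound cytoplasmic genes fell to 10 among the 3620 strongest IDR peaks, and the count of 10 mitochondrial genes ran from 8 to 13 under the alternatives tried. The difference between the kinds, 27.8 points, was 2.22 points among the 3620 strongest IDR peaks, 13.3 with all pooled peaks, and 13.3 where the gene's own TSS had to be the nearest. The cytoplasmic share was the higher in each alternative tried. At 2.22 points, though, the difference was less than a single gene, so its direction can turn at other cuts of the list. With each replicate left out in turn, and a consensus of the others in place of the IDR list, 16 to 17 cytoplasmic and 9 mitochondrial genes were bound, a difference of 28.9 to 34.4 points, and 25 to 26 genes were bound in all replicates kept. The median signal value of 507 was 489 with a limit of 250 bp and 464 where the own TSS had to be the nearest. Motif counts moved with the window. At 200 bp to either side 18 of 27 bound genes had CGATA, against 67.0% of promoter summits, and 5 of 27 had the DRE, against 20.04%. The lower shares of these 2 motifs within 100 bp were thus nearly gone in the wider window. At 50 bp to either side they stayed lower, with CGATA at 7 of 27 against 39.29% and the DRE at 2 of 27 against 11.14%. Among genes with no TSS of another protein-coding gene within 1000 bp the kinds could not be compared, since no cytoplasmic gene is among them. The causes were not tested.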
